A study of Mus musculus with 6 samples.

Results

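Body iron is mostly reused. Macrophages of marrow, spleen and liver engulf worn-out red cells, break the haem ring open and return the iron to plasma, where the carrier protein transferrin takes it to cells that display the transferrin receptor, above all the developing red cells of the marrow. Iron that is not needed at once is kept inside ferritin, a shell built of heavy and light chains. The 10 genes described here cover these steps: Hmox1 (haem breakdown), Slc40a1 and Cp (release), Trf (plasma carriage), Tfrc, Steap3 and Slc11a2 (uptake), Slc11a1 (transport in phagocytes), and Fth1 and Ftl1 (storage). They were chosen by gene symbol from the 43346 genes of a count table, each symbol matched 1 row, and all 10 passed the filter on low counts that left 18757 genes for testing.

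The table holds RNA-seq counts from the femurs of C57BL/6 mice, an inbred laboratory strain, aged 4 months. The radiated group (3 libraries) came from right femurs in which 5 mm of the distal metaphysis, the marrow-rich end of the shaft beside the growth plate, had received a single image-guided X-ray dose of 24 Gy at 6.6 Gy per minute. The non-radiated group (3 libraries) came from the opposite, left femurs, which received no dose but belonged to animals irradiated in the other leg. Both were taken on day 21, chosen by the submitters to catch events ahead of a bone loss that was seen on day 28. The tissue was the excised bone after muscle had been removed, a mixture of cell types. The labels do not say whether libraries of the same number are paired. They also do not say whether the 3 libraries of a group are separate animals. The p-values therefore measure the spread between these libraries, which may be technical.

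Total counts ran from 34034251 to 48708383 per library. In non-radiated library 2 a single row, AY036118, held 32.9% of the counts, against 0.321% to 5.61% in the other 5, which leaves that library with less depth for other genes. The 10 markers of skeletal muscle summed to 738, 2292 and 185 CPM (counts scaled to library depth, by edgeR's TMM method) in radiated libraries 1, 2 and 3, against 162 to 325 CPM in the non-radiated libraries. Markers of the labelled tissue were abundant in every library: 10 erythroid markers summed to 7473 to 8868 CPM and 7 markers of bone-forming cells to 3366 to 6857 CPM.

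Cells set the output of several of these genes after transcription, through the iron-responsive element, a hairpin in the messenger RNA bound by iron regulatory proteins when iron is scarce. In a 5′ untranslated region (UTR) the bound protein blocks translation and leaves the amount of RNA largely as it was, and in the 3′ UTR of Tfrc it slows decay of the RNA. Of the 10 genes, 4 had a match to the element in GENCODE M21 transcripts (build GRCm38). The pattern was a C, 5 bases, CAGTGN and 5 more bases, read on the transcript's own strand, with the 5-base stretches on each side of the loop able to pair. Fth1, Ftl1 and Slc40a1 had 1 match each in the 5′ UTR, and Tfrc had 4 in the 3′ UTR. Among all genes with such a region, 0.148% of 20899 had a match in the 5′ UTR and 0.595% of 21685 in the 3′ UTR. The matches of the ferritin genes and Tfrc are shown because they mark which RNA levels this route is known to set and which it is not. The capitals mark the 6-base loop, and 5 bases beyond the match are shown on each side.
Fth1 (chr19:9982733-9982759, plus strand, 5′ UTR): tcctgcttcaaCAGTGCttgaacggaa
Ftl1 (chr7:45459780-45459806, minus strand, 5′ UTR): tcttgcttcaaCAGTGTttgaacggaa
Tfrc site 1 (chr16:32631220-32631246, plus strand, 3′ UTR): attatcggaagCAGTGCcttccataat
Tfrc site 2 (chr16:32631599-32631625, plus strand, 3′ UTR): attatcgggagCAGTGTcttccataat
Tfrc site 3 (chr16:32631664-32631690, plus strand, 3′ UTR): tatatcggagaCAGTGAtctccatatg
Tfrc site 4 (chr16:32631711-32631737, plus strand, 3′ UTR): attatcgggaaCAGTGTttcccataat

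The elements of the ferritin chains shared 25 of 27 bases with each other and 9 to 13 of 27 with those of Tfrc. Among the 4 sites of Tfrc, 17 to 25 of 27 bases were the same. A match of letters is a description of the sequence and no measure of binding, and a gene without a match in this search can hold an element of another form.

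In the radiated femur Hmox1 and Trf rose, by 1.42-fold and 1.6-fold, and no other gene of the 10 passed the test. The 2 calls among 10 genes (edgeR quasi-likelihood test, Benjamini-Hochberg adjusted p under 0.05) stand beside 7.80% of all genes tested, of which 4.56% were higher and 3.24% lower. DESeq2's Wald test called 5 of the 10, adding Slc11a1, Ftl1 and Tfrc, beside 11% of the genes to which it gave an adjusted p. Hmox1 and Trf were the 2 called by limma-voom (7.29% of all genes) and with the library number as a block in edgeR (8.9%). Slc11a1, Ftl1 and Slc40a1 had positive fitted differences and Tfrc and Cp negative ones, each with an unadjusted p under 0.05 and an adjusted p from 0.0668 to 0.222. With the 2 called genes, 7 of the 10 had an unadjusted p under 0.05 by edgeR, beside 4040 of all 18757 genes tested. Fth1, Slc11a2 and Steap3 had intervals that spanned zero. The median log2 fold change of the 10 was 0.15, against 0.0023 over all genes tested. In bulk tissue, fewer cells of a type and less RNA per cell cannot be told apart.

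**Figure D1:**
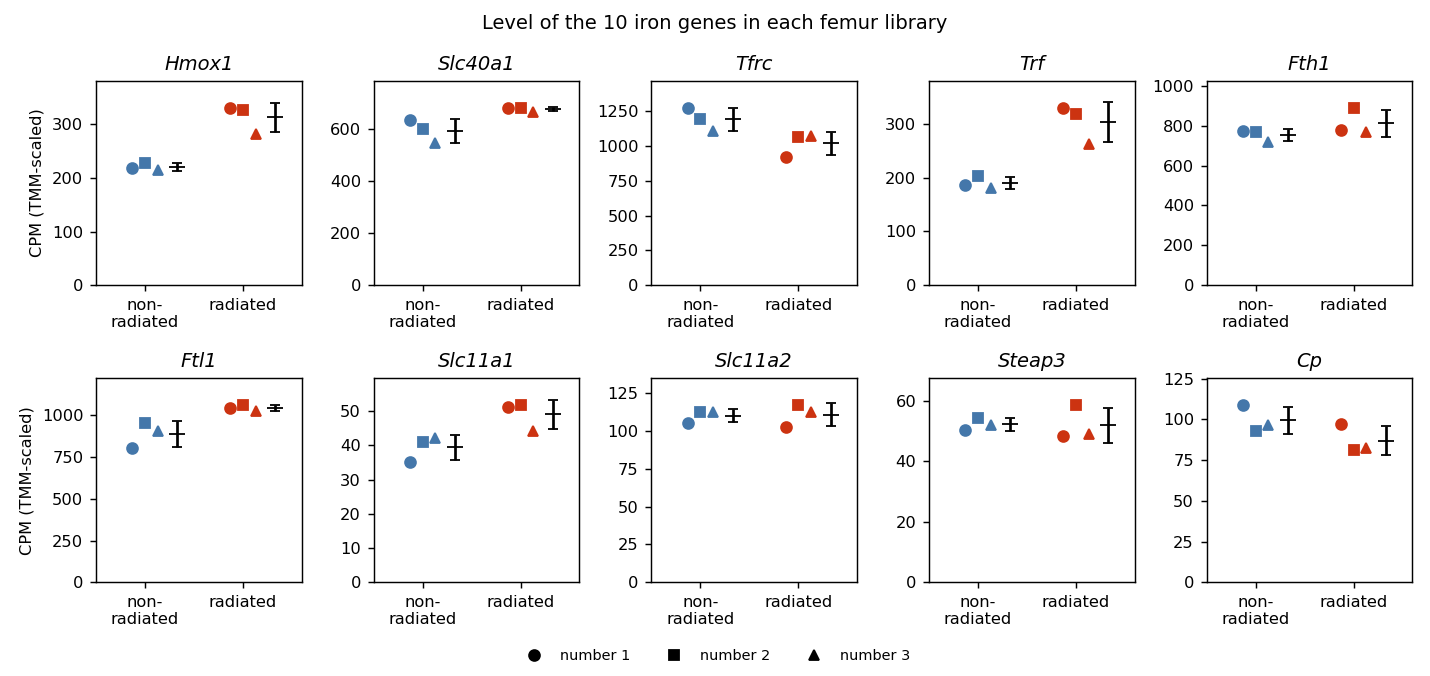
Level of each of the 10 genes in CPM (TMM-scaled, vertical axes from 0) in the 3 non-radiated (blue) and 3 radiated (red) libraries, with symbols for the library number and black bars for mean ± SD. Hmox1 and Trf stand apart between the groups, with radiated values from 281 and 262 CPM upward against at most 228 and 203 CPM in non-radiated femur.

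Hmox1 encodes haem oxygenase 1, which opens haem to biliverdin, carbon monoxide and free iron (ENSMUSG00000005413, chromosome 8, 75093591 to 75100596). It was at 218, 228 and 214 CPM in non-radiated libraries 1, 2 and 3 and at 331, 326 and 281 CPM in radiated libraries 1, 2 and 3. The lowest radiated library, number 3, lay above the highest non-radiated one. The groups did not overlap in 6 of the 10 genes, 5 with radiated higher and 1 (Tfrc) lower, against 25.9% of all genes tested, 14.4% higher and 11.5% lower. The means were 220.1 ± 7.22 and 312.7 ± 27.3 CPM (SD, n = 3 each), log2 fold change 0.51, SE 0.07, adjusted p by edgeR 0.00306. It was called in each of 14 alternative fits.

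Slc40a1, ferroportin, is the one known exporter of iron from cells (ENSMUSG00000025993, chromosome 1, 45908068 to 45926523). It was at 635, 597 and 544 CPM in the non-radiated libraries and 680.0, 680.4 and 664 CPM in the radiated libraries. The radiated libraries were close together and all above the non-radiated ones, by a small margin. The log2 fold change of 0.19 (SE 0.07, adjusted p by edgeR 0.157) did not pass the test, and its 95% interval ran from a fold of 1.02 to 1.27. It was not called in any of the 14 alternatives, where the adjusted p ran from 0.0734 to 0.449.

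Cp encodes ceruloplasmin, the copper-bearing oxidase that turns released iron into the form transferrin binds (ENSMUSG00000003617, chromosome 3, 19957054 to 20009145). Its levels were 109, 93.1 and 96.5 CPM in the non-radiated and 97.2, 81.3 and 82.5 CPM in the radiated libraries. The ranges overlapped, since radiated library 1 lay above non-radiated libraries 2 and 3, while within each number the radiated library was the lower, by 0.16, 0.19 and 0.23 on the log2 scale for numbers 1, 2 and 3. The fitted log2 fold change was -0.19 (SE 0.08, adjusted p by edgeR 0.222), and -0.13 without non-radiated library 1. Cp overlaps Hps3, whose counts were 84.8% to 98.9% of those of Cp, and how the counting used strand is not given in the sources used here, so its counts are uncertain.

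Trf encodes transferrin, made mostly by liver for the plasma and also by other tissues (ENSMUSG00000032554, chromosome 9, 103204001 to 103230444). It was at 187, 203 and 181 CPM in the non-radiated and 330.3, 318 and 262 CPM in the radiated libraries. As for Hmox1, radiated libraries 1 and 2 were the highest and radiated library 3 lay between them and the non-radiated group, with no overlap. The means were 190.3 ± 11.3 and 303.5 ± 36.4 CPM (SD, n = 3 each), log2 fold change 0.67, SE 0.09, adjusted p by edgeR 0.00224, and the call was kept in all 14 alternatives. Of 5 markers of hepatocytes, Alb and Ttr had 0 counts in all but non-radiated library 1 (2 counts of Alb). Apoa1 and Apoa2 had 0 to 6 counts per library. Serpina1a, the only marker of this list that passed the filter, had 35 to 228 counts per library. It fell, from 4.44 to 5.38 CPM to 0.655 to 2.55 CPM. The part of liver cells in the level of Trf was not tested.

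The counts of Trf may not be its own alone. Gm20425 is an annotated gene on the same strand that runs on from Trf into the neighbouring Srprb. It shares 69.6% of its exon bases with Trf in GENCODE M21. Its counts were 94.6% to 100% of those of Trf in every library. Srprb, the signal recognition particle receptor subunit at the far end, had counts of 8.23% to 16.5% of those of Trf. The same reads can therefore enter both the Trf and the Gm20425 row, and the table does not say which transcript they came from.

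Tfrc encodes transferrin receptor 1, which brings iron-laden transferrin into cells and is most abundant on the precursors of red cells (ENSMUSG00000022797, chromosome 16, 32608920 to 32632794). It was at 1277, 1193 and 1111.5 CPM in the non-radiated and 922.5, 1065 and 1074 CPM in the radiated libraries. The radiated libraries were all below the non-radiated ones, with 1074 against 1111.5 CPM at the nearest point, and number 1 gave the widest gap. The log2 fold change was -0.23 (SE 0.09, adjusted p by edgeR 0.167). It was called by DESeq2's Wald test alone (-0.23, adjusted p 0.0286), and the adjusted p over the 14 alternatives ran from 0.0286 to 0.941.

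Steap3 encodes the reductase that frees iron from transferrin inside the endosomes of erythroid cells, and Slc11a2 the transporter DMT1 that moves this iron into the cytosol. Steap3 was at 50.3, 54.4 and 51.9 CPM in the non-radiated and 48.2, 58.7 and 49.1 CPM in the radiated libraries. Slc11a2 was at 105, 113 and 112 CPM in the non-radiated and 102, 117 and 113 CPM in the radiated libraries. In both genes radiated library 2 was the highest and radiated library 1 the lowest of all 6, so the groups overlapped fully. The 95% intervals of the fold were 0.877 to 1.13 for Steap3 and 0.913 to 1.11 for Slc11a2 (adjusted p by edgeR 0.985 and 0.953), which bounds a difference but does not show that there was none.

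Slc11a1 encodes NRAMP1, known to pump iron and other metals out of the phagosome of macrophages and neutrophils (ENSMUSG00000026177, chromosome 1, 74375195 to 74386062). Counts of its RNA do not show whether the protein works in this strain. It was at 35.2, 40.8 and 42.2 CPM in the non-radiated and 51.0, 51.8 and 44.2 CPM in the radiated libraries. The groups did not overlap, and radiated library 3 lay just above non-radiated library 3. The log2 fold change was 0.31 (SE 0.09, adjusted p by edgeR 0.0668). It was called in 4 of the 14 alternatives (library totals without AY036118, no filter, DESeq2's Wald test and the fit without radiated library 3), and its adjusted p ran from 0.0141 to 0.204.

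Ferritin light chain, which promotes the mineral core of the shell, is encoded by Ftl1 (ENSMUSG00000050708, chromosome 7, 45457944 to 45459884). It was at 803, 957 and 909.6 CPM in the non-radiated and 1045, 1064 and 1025 CPM in the radiated libraries. The radiated libraries lay close together above the non-radiated ones, with a log2 fold change of 0.23 (SE 0.08, adjusted p by edgeR 0.120). DESeq2's Wald test alone called it (0.22, adjusted p 0.0189), and the adjusted p over the 14 alternatives ran from 0.0189 to 0.343. Ferritin heavy chain, which carries the iron-oxidising centre, is encoded by Fth1 (ENSMUSG00000024661, chromosome 19, 9982703 to 9985092). It was at 774, 771 and 718 CPM in the non-radiated and 781, 890.5 and 767 CPM in the radiated libraries. Radiated library 3 lay below non-radiated libraries 1 and 2, and the log2 fold change of 0.11 (SE 0.08, adjusted p by edgeR 0.484) did not pass the test. It was 0.04 when radiated library 2 was left out and 0.07 when non-radiated library 3 was.

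Ferritin genes have processed pseudogenes that can share reads with them. Other rows of the table whose symbol begins with Fth or Ftl held few counts: Fth-ps2 had 76 to 177 per library, Ftl2 0 to 6 and Fthl17 0 to 1, against 19304 to 47552 for Fth1 and 23967 to 56811 for Ftl1. How reads that fit several places were counted is not given in the sources used here. A small RNA annotated inside Ftl1, Gm22133, had 9.35% to 10.7% as many counts as Ftl1.

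**Figure D2:**
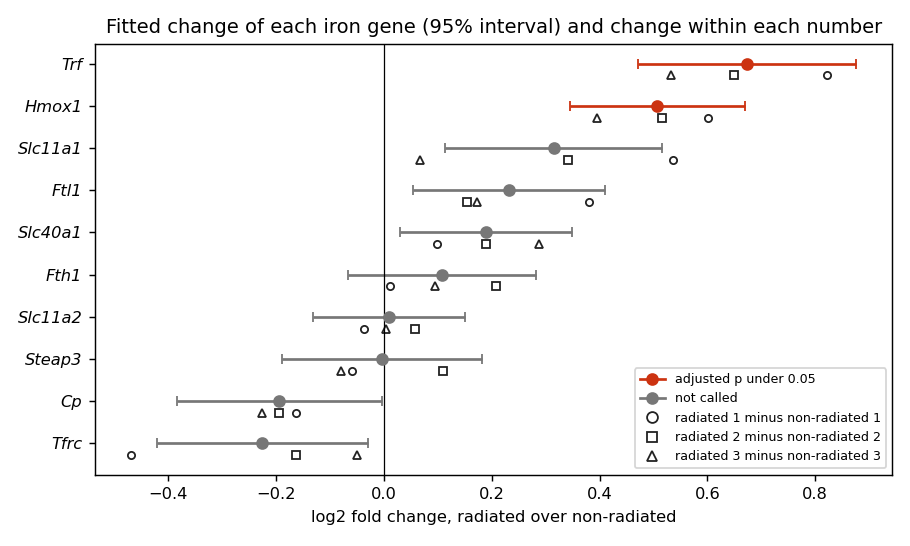
Fitted log2 fold change of each gene, radiated over non-radiated, with its 95% interval (red where the adjusted p by edgeR was under 0.05, grey otherwise), and below it the difference between the libraries of the same number (open symbols). Hmox1 and Trf lie at 0.51 and 0.67, and the open symbols of Slc11a2 and Steap3 lie on both sides of zero. The labels do not state that libraries of the same number are paired.

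The size of the difference varied between numbers. For Hmox1 it was 0.60, 0.52 and 0.40 on the log2 scale for numbers 1, 2 and 3, and for Trf 0.82, 0.65 and 0.53. Slc11a1 spanned a wider range, from 0.54 for number 1 to 0.07 for number 3, and Tfrc ran from -0.47 for number 1 to -0.05 for number 3. Slc40a1 had its widest difference in number 3, at 0.29, and its narrowest in number 1, at 0.10. Slc11a2 and Steap3 had differences on both sides of zero.

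Levels of different genes were compared per kilobase of gene length as the table gives it, and the order depends on that length. It was 2161 bases for Hmox1, 3320 for Trf and 9000 for Slc40a1. By CPM alone Slc40a1, at 592 in non-radiated and 675 in radiated femur, stood above Hmox1 (220 and 313) and Trf (190 and 304). In the non-radiated femur the ferritin chains led, with Fth1 at 871 ± 36.1 and Ftl1 at 664 ± 58.8 CPM per kb, followed by Tfrc at 193 ± 13.4, Hmox1 at 102 ± 3.34, Slc40a1 at 65.8 ± 5.06 and Trf at 57.3 ± 3.41 (mean ± SD, n = 3). Slc11a2 was at 17.3 ± 0.671, Slc11a1 at 10.6 ± 1.005, Cp at 10.4 ± 0.870 and Steap3 at 9.13 ± 0.366 CPM per kb. Neighbours in this order whose ranges overlapped were Slc40a1 and Trf, and Slc11a1 and Cp. In non-radiated libraries 1, 2 and 3 Slc40a1 was at 70.6, 66.3 and 60.5 CPM per kb, above Trf at 56.3, 61.1 and 54.5. Slc11a1 lay below Cp in non-radiated library 1 and above it in non-radiated libraries 2 and 3. In the radiated femur Trf, at 91.4 ± 10.97 CPM per kb, stood above Slc40a1, at 75.0 ± 1.01, with no overlap. There Hmox1 at 145 ± 12.6 overlapped Tfrc at 165 ± 13.7 CPM per kb, and Steap3 overlapped Cp.

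**Figure D3:**
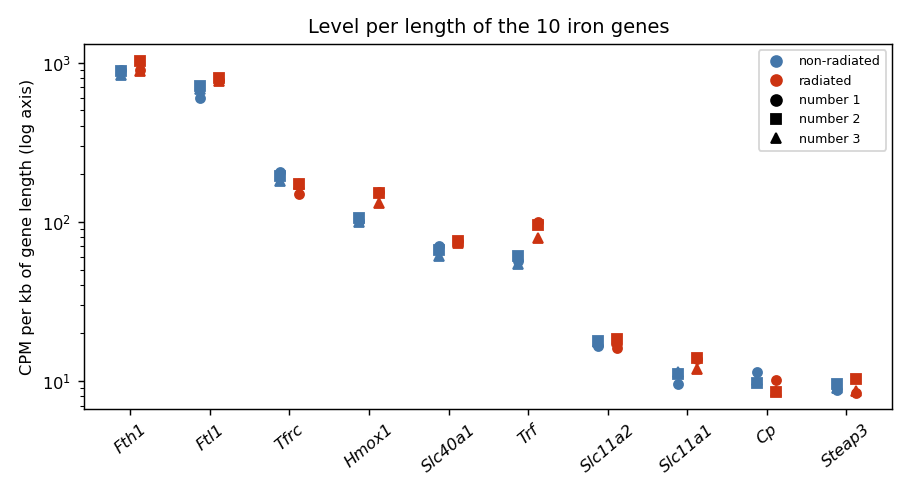
Level per kilobase of gene length (log axis) of the 10 genes in the non-radiated (blue) and radiated (red) libraries, ordered by the non-radiated mean. Fth1 and Ftl1 lie highest, at 599 to 1028 CPM per kb, and Steap3 and Cp among the lowest, at 8.44 to 11.4.

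Ratios of a pair of these genes within a library do not depend on how libraries are scaled to each other. Tfrc to Fth1, uptake against storage, had log2 ratios of 0.72, 0.63 and 0.63 in the non-radiated and 0.24, 0.26 and 0.49 in the radiated libraries. All 3 radiated values were below the non-radiated ones, a difference of -0.33 in the means. Slc40a1 to Hmox1, export against haem breakdown, had log2 ratios of 1.54, 1.39 and 1.35 in the non-radiated and 1.04, 1.06 and 1.24 in the radiated libraries, a difference of -0.31 with no overlap. Slc11a1 to Slc11a2, the phagocyte transporter against its widely expressed relative, went from -1.58, -1.46 and -1.41 to -1.0, -1.18 and -1.35, a difference of 0.31 with no overlap. Fth1 to Ftl1, heavy against light chain, overlapped between the groups, with means of -0.24 ± 0.16 and -0.37 ± 0.09 (log2, SD, n = 3 each), and the difference of -0.13 was -0.04 without non-radiated library 1. The first 3 ratios each had a two-sided exact permutation p of 0.1, the smallest that 3 against 3 can give, and 0.133 after Benjamini-Hochberg adjustment over the 4 ratios, and Fth1 to Ftl1 had 0.3 before and after it, so none passed a threshold of 0.05.

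**Figure D4:**
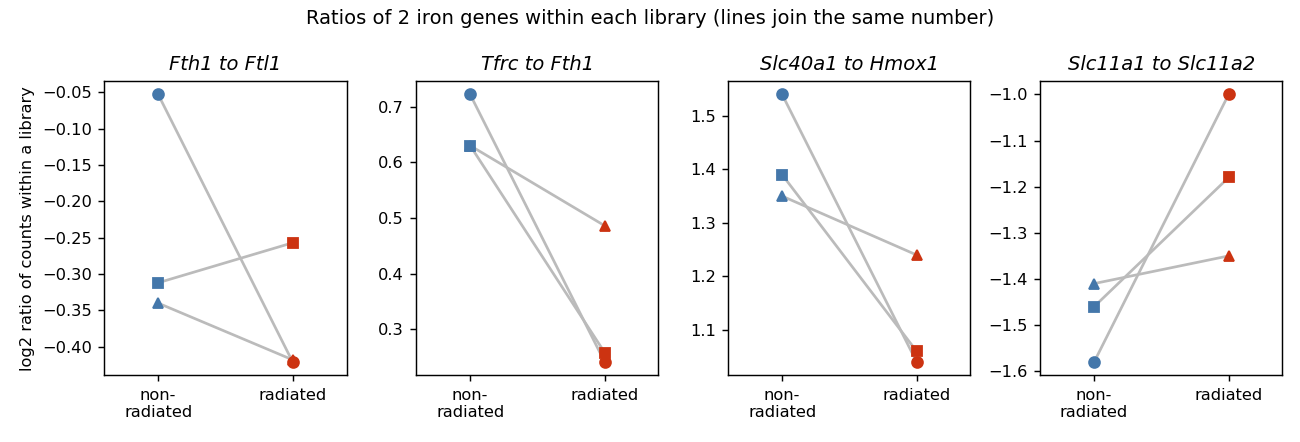
Log2 ratio of the counts of 2 genes within each library, in separate panels with their own vertical scales, for non-radiated (blue) and radiated (red) femur, with grey lines joining libraries of the same number. The groups do not overlap for Tfrc to Fth1, Slc40a1 to Hmox1 and Slc11a1 to Slc11a2, and do for Fth1 to Ftl1.

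The genes whose pattern over the 6 libraries was most like that of Hmox1, among the 10033 genes whose mean reached 10 CPM, were Trf, Gm20425 and Lck (Pearson r of log2 CPM 0.999, 0.999 and 0.997). Those most like Trf were Gm20425, Hmox1 and Ctsd (0.999, 0.999 and 0.994). Gm20425 had nearly as many counts as Trf, as given above. Ctsd, the lysosomal protease cathepsin D, rose from 667 ± 26.6 to 887 ± 75.7 CPM (SD, n = 3 each, adjusted p by edgeR 0.0134). Lck, a kinase of T cells, rose from 10.5 ± 0.255 to 14.6 ± 1.05 CPM (SD, n = 3 each, adjusted p by edgeR 0.0108). These correlations describe libraries that share a group difference and a scaling.

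Markers of cell types that can hold these transcripts were set beside them, and the called ones are named after their values were seen. Genes said to lead a list have its highest means over all 6 libraries. Beside the calls per list stand the shares of all genes: 7.80% by edgeR (4.56% higher, 3.24% lower) and 8.9% with the block. The shares were 11% by DESeq2, of genes to which it gave an adjusted p, and 7.29% by limma-voom. An unadjusted p under 0.05 by edgeR was found for 4040 of all 18757 genes tested. Of 12 macrophage markers 8 rose and 1, Timd4, fell, and their sum was 1852 to 2095 CPM in the radiated against 1431 to 1587 CPM in the non-radiated libraries. Axl, a receptor for dying cells, rose from 272 ± 8.19 to 367 ± 18.5 CPM, while Vcam1, the leading one, went from 377 ± 57.3 to 444 ± 14.1 CPM without passing the test (SD, n = 3 each, adjusted p by edgeR 0.00284 and 0.221). All 12 were detected in every library. Among the radiated libraries this sum was highest in number 1 and lowest in number 3. Hmox1, Trf and the summed adipocyte markers had that order too, so it was not particular to macrophages, and its source was not tested. All 7 adipocyte markers rose, led by Fabp4 and Adipoq, from a sum of 85.0 to 96.3 CPM to one of 178 to 242 CPM, again lowest in radiated library 3.

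None of 10 erythroid markers was called by edgeR, DESeq2 or limma-voom, with 2 at an unadjusted p under 0.05 by edgeR. Of the 10, 9 had negative log2 fold changes and 1, Alas2, a positive one, with a median of -0.12. Their sum was 7473 to 8478 CPM in the radiated against 7940 to 8868 CPM in the non-radiated libraries. Slc4a1, the anion exchanger of the red cell membrane, was at 3023 ± 225 and 2857 ± 223 CPM, and Alas2, which starts haem synthesis in erythroid cells, at 1300.0 ± 105 and 1421 ± 72.0 CPM in non-radiated and radiated femur (SD, n = 3 each). Tfrc is known to be abundant in these cells. All 9 neutrophil markers, led by S100a9 and Ngp, had negative log2 fold changes, with sums of 9621 to 11115 CPM in the radiated against 11959 to 15669 CPM in the non-radiated libraries. Csf3r was the only one called by edgeR, while 5 were called with the replicate block, 3 by limma-voom and 9 by DESeq2.

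Of 7 megakaryocyte markers, led by Ppbp and Itga2b, all fell. Of 7 markers of bone-forming cells, led by Col1a1 and Ibsp, Col1a1 and Phex fell, and 4 did with the replicate block. Of 6 endothelial markers, led by Stab2 and Pecam1, Tek fell, and with the block Cdh5 rose as well. None of the 10 muscle markers, led by Myh4 and Atp2a1, was called by edgeR, DESeq2 or limma-voom, with 10 at an unadjusted p under 0.05 by edgeR and 8 called higher with the block. The summed muscle markers of radiated library 3 were within the non-radiated range, and those of radiated libraries 1 and 2 above it. Relative to the non-radiated mean, Hmox1 was at 0.59, 0.57 and 0.36 in radiated libraries 1, 2 and 3 on the log2 scale. Trf was at 0.80, 0.74 and 0.46. The part of any of these cells in the levels of the iron genes was not tested.

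**Figure D5:**
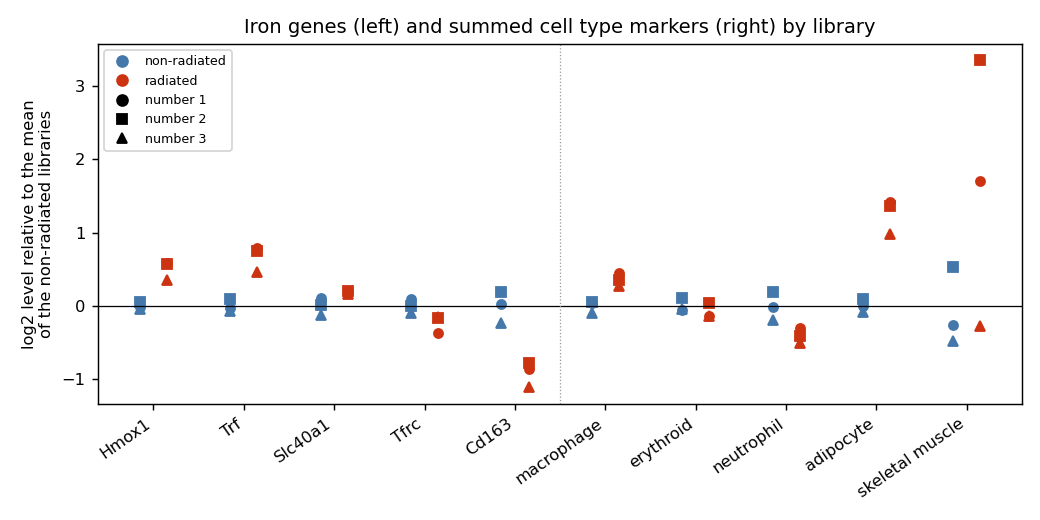
Log2 level in each library relative to the mean of the non-radiated libraries, for 5 iron genes (left of the dotted line) and for summed markers of 5 cell types (right of it). Hmox1, Trf and the macrophage and adipocyte sums lie above zero in all 3 radiated libraries, Cd163 lies at -0.77 to -1.11, and the muscle sum lies at 1.71 and 3.35 in radiated libraries 1 and 2 and at -0.28 in radiated library 3.

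Other genes of iron and haem handling were taken from 4 lists of 48 genes, of which 42 were tested, 1 rose and 2 fell. The share called was 7.14%, near the 7.80% of all genes tested, and the median log2 fold change was -0.05. An unadjusted p under 0.05 by edgeR was found for 17 of the 42, beside 4040 of all 18757 genes tested. In the list of haem capture and breakdown, 12 of 13 genes were tested, 1 rose, 1 fell and 10 did not pass, with a median of 0.10. The receptors there went in opposite directions. Cd163, the macrophage receptor for haemoglobin bound to haptoglobin (ENSMUSG00000008845, chromosome 6, 124304651 to 124330527), was at 74.6, 83.4 and 62.3 CPM in the non-radiated and 40.4, 43.0 and 34.0 CPM in the radiated libraries. The fall of 0.91 on the log2 scale (SE 0.12, adjusted p by edgeR 0.00193) was larger than the spread in either group, stood beside macrophage markers that mostly rose, and was called in all 14 alternatives.

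Lrp1, a large scavenger receptor that takes up haem bound to haemopexin among many ligands (ENSMUSG00000040249, chromosome 10, 127538161 to 127621148), was at 404, 435 and 479 CPM in the non-radiated and 714, 657 and 568 CPM in the radiated libraries. It rose by 0.56 on the log2 scale (SE 0.10, adjusted p by edgeR 0.00844), with no overlap. Hp, haptoglobin itself, and Slc48a1, which carries haem out of the phagolysosome, were the most abundant genes of that list that did not pass, at log2 fold changes of 0.19 and 0.14 (adjusted p by edgeR 0.370 and 0.141). Hpx, haemopexin, had 1 to 11 counts per library and was not tested.

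None of the 10 tested genes for uptake, reduction and oxidation passed the edgeR test, with 3 at an unadjusted p under 0.05, 0 called by limma-voom and 1, Ltf, by DESeq2. Their median log2 fold change was -0.07. The most abundant, Ltf and Lcn2, encode the iron- and siderophore-binding proteins of neutrophil granules and had log2 fold changes of -0.29 and -0.23 (adjusted p by edgeR 0.173 and 0.354), beside the neutrophil sums given above. In the list of sensing, chaperones and systemic control, 13 of 15 genes were tested, with 1 lower, none higher and a median of -0.09. Bmp6, the signal by which liver endothelium reports iron stores (ENSMUSG00000039004, chromosome 13, 38345716 to 38499728), was at 8.15, 8.46 and 8.24 CPM in the non-radiated and 4.81, 5.34 and 3.97 CPM in the radiated libraries. It fell by 0.81 on the log2 scale (SE 0.13, adjusted p by edgeR 0.00604) and was called in 13 of the 14 alternatives. The call was lost under scaling by library totals alone (-0.62, adjusted p by edgeR 0.208), where the median of all genes was 0.195. Under library totals without AY036118 Bmp6 had a log2 fold change of -0.78 (adjusted p by edgeR 0.0061).

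The hormone hepcidin was almost absent, with 1 to 9 counts of Hamp and 0 to 3 of Hamp2 per library. The chaperone gene Pcbp2 and the ferritin-turnover receptor Ncoa4 had log2 fold changes of -0.13 and -0.04 (adjusted p by edgeR 0.323 and 0.812). Hfe2, haemojuvelin, a gene also expressed in skeletal muscle and named here after its values were seen, had 11, 15 and 15 counts in the non-radiated and 61, 348 and 20 in the radiated libraries. It was highest in radiated library 2 and next in radiated library 1, as were the muscle sums given above. The part of muscle in its difference (adjusted p by edgeR 0.0816) was not tested. In the list of mitochondrial iron and iron-sulphur clusters, none of 7 tested genes passed (edgeR, 1 at an unadjusted p under 0.05, 0 called by DESeq2 or limma-voom), with a median of -0.01. Slc25a37, mitoferrin 1 of erythroid cells, was at 1464 ± 43.2 and 1460 ± 75.2 CPM in non-radiated and radiated femur (SD, n = 3 each), and Glrx5 had a log2 fold change of -0.13 (adjusted p by edgeR 0.522).

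With the library number as a block, 6 of the 42 other iron genes tested were called in place of 3, beside 8.9% of all genes. The added ones were Hfe2 and Spic (higher) and the haem transporter Flvcr2 (lower). Spic, the transcription factor of iron-recycling macrophages, had a log2 fold change of 0.40 without the block (adjusted p by edgeR 0.0741). Spic was at 27.3, 30.3 and 21.6 CPM in the non-radiated and 37.3, 33.9 and 32.8 CPM in the radiated libraries, with no overlap.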

How the data were processed

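RNA-seq of 3 radiated and 3 non-radiated mouse femurs was analysed. Counts were deposited by the authors as whole numbers per gene, per the file headers, and RPKM deposited by the authors beside them was not used. STAR 2.5.2b, Subread and featureCounts and the build mm10 are named in the submitters' processing notes, and their settings, annotation and use of strand are not given in the sources used here.

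Genes were filtered with filterByExpr of edgeR 4.0.16 in R 4.3.3 (minimum count 10, minimum total 15), scaled by TMM and tested with glmQLFit and glmQLFTest, group as the only term, with Benjamini-Hochberg adjustment over all 18757 genes tested. Of these 1463 were called, 856 higher and 607 lower (854 and 146 under library totals alone). The biological coefficient of variation was 12.9%, and each standard error was taken as the log2 fold change over the root of F. The fit was tested on simulated data. Alternatives were DESeq2 1.42.0 size factors and Wald test, library totals with and without AY036118, no filter, a mean of at least 1 CPM, limma-voom (limma 3.58.1), the replicate number as a block, and each library left out.

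The members and lists were chosen with earlier results of these data known. Of 131 list entries all were found, 4 through their gene ID. Named were the 10 genes, every called gene and up to 2 abundant uncalled ones of each other iron list, the 2 most abundant genes per marker list, the 3 most alike genes, and ferritin rows. Replicates of a group differed by more than sampling noise (chi-square per degree of freedom 17.8 to 631, AY036118 included). The highest values, 533 and 631, were those of pairs with non-radiated library 2, where AY036118 held 32.9% of the counts. The part of that row in them was not tested. Same-numbered libraries deviated together (correlations across genes 0.166, 0.277 and 0.187, against -0.170 to -0.008 for different numbers). Deviations were taken from the mean of each group, so positive values for same numbers bring negative ones for different numbers with them. On this basis libraries were treated as paired by number in the fit with a block, a pairing that the labels do not state.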

Additional observations from a re-analysis of the deposited data

How the results depend on the processing

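Hmox1 and Trf were called in all 14 alternatives, with log2 fold changes of 0.46 to 0.71 and 0.61 to 0.88. The count of the 10 genes called was 2 in 10 alternatives, 3 in another 3 (library totals without AY036118, no filter, and without radiated library 3, each adding Slc11a1) and 5 with DESeq2's Wald test. The count of other iron genes called was 3, and 5 with library totals without AY036118, 6 with no filter, 6 with DESeq2's Wald test and 6 with the replicate block. With a library left out it was 3 to 6, namely 5 when non-radiated library 3 was left out and 6 when radiated library 3 was. The block changed no call among the 10 genes, lost none among the other iron genes, and gave 1670 called genes in all. The count over all genes was 764 to 1376 with a library left out, being 764 without radiated library 1, and 905 and 819 when non-radiated library 1 or 2 was left out. Scaling by library totals alone moved the median of all genes to 0.19 and the share higher among calls from 58.5% to 85.4%, and Tfrc (-0.03) and Cp (-0.02) still lay below that median. Steap3 changed sign under library totals alone (0.196) and under library totals without AY036118 (0.0272). The medians of all genes under these 2 scalings were 0.195 and 0.0342. With a library left out Steap3 ran from -0.101 to 0.0462. Slc11a2 ran from -0.0333 to 0.0624 with a library left out, and was below zero without non-radiated library 1, radiated library 2 or radiated library 3. The cause was not tested. The 10 genes had 1023 counts or more in every library.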
